A study of Mus musculus with 12 samples.

Results

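Transcripts of 10 genes of prostaglandin synthesis and signaling were examined in cultured mouse cardiac fibroblasts with or without loss of Smad7 and with or without TGF-β1. The genes were taken by symbol from the deposited count table of 35275 genes, and their list was chosen with earlier results of these data known. The genes comprised the cyclooxygenases Ptgs1 and Ptgs2, the terminal synthases Ptges, Ptgis and Ptgds, and the receptors Ptger1, Ptger2, Ptger3, Ptger4 and Ptgfr. Of these 10 genes, 7 passed the filter on low counts and were tested; Ptgds, Ptger3 and Ptgfr did not pass and are described by their counts. Poly-A RNA was sequenced from 12 libraries, 3 in each of 4 conditions, from cells of 12-week-old C57BL/6 mice with a floxed Smad7 gene. The cells were used at passage 2, and each culture was exposed to an adenovirus for 48 hours at a multiplicity of infection of 100. The virus expressed the Cre recombinase in Smad7-KO cells and green fluorescent protein in control cells according to the labels, whereas the study's methods describe an empty control virus, so every condition carried the floxed allele and an adenovirus. Smad7 loss came only with the Cre virus, so effects of Smad7 loss and of that virus cannot be told apart. TGF-β1 was given at 10 ng/ml, for 2 hours in 1 label field and 4 hours in another. Control and Smad7-KO cells were each studied without stimulation and with TGF-β1. Nothing in the labels says whether libraries of a condition came from separate animals or cultures, so p values measure the spread between these libraries, which may be technical.

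Prostaglandins are lipid mediators made from arachidonic acid, which phospholipases release from membranes. Cyclooxygenases, encoded by Ptgs1 and by the inducible Ptgs2, convert arachidonic acid to prostaglandin H2, and terminal synthases then turn this intermediate into prostaglandin E2, prostacyclin, prostaglandin D2 and other products that act on G protein-coupled receptors of the same or neighboring cells. In cardiac fibroblasts, prostaglandin E2 and prostacyclin are known to raise cyclic AMP and to restrain the activated, matrix-producing phenotype.

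Smad7 transcript, the check of the deletion, was at 71.4 to 77.2 CPM (counts scaled to the size of the library and between libraries by the TMM method) in unstimulated control and at 28.4 to 31.1 CPM in unstimulated Smad7-KO libraries, and at 142 to 150 CPM and 70.0 to 80.8 CPM in the TGF-β1 groups. Library totals ranged from 19056916 to 25371321 counts, so that 3 counts, taken as the floor of a library, correspond to 0.120 to 0.171 CPM. Floors cover counting error only, whereas the 95% intervals given below also cover the spread between these libraries. Unstimulated control library 2 stood apart. In a chi-square comparison of replicate counts per gene, pairs that include it gave 93.1 to 254, whereas all other pairs gave 3.15 to 65.5. The 65.5 was that of unstimulated control libraries 1 and 3. For Smad7 loss without stimulation, 3907 of all genes were called with all 12 libraries, 3013 without unstimulated control library 2 and 7979 without unstimulated control library 3. Values without unstimulated control library 2 accompany the results below, and leaving out that library changed none of the calls on the 10 genes. Against the label of fibroblasts, the summed level of 10 macrophage markers (15535 to 25465 CPM) lay above that of 10 fibroblast markers (7425 to 11496 CPM) in every library; no marker of either list was at the floor in any group, and the macrophage gene Adgre1 was not used here. In unstimulated cells, 5 of the 10 macrophage markers were higher in Smad7-KO and none was lower, and in TGF-β1-treated cells 4 were higher and none lower. The summed macrophage level was 15599.5 to 25465 CPM in unstimulated control and 22206 to 24399.6 CPM in unstimulated Smad7-KO libraries, and 15535 to 18196 CPM and 21379.9 to 24434 CPM in the TGF-β1 groups. Of the fibroblast markers, 2 (Dcn and Lum) were higher and 2 (Tcf21 and Thy1) lower in both. Of 9 tested endothelial markers, 6 were lower and 1 (Vwf) was higher in Smad7-KO cells in both comparisons, with summed levels of 278 to 332 CPM in unstimulated control and 49.0 to 58.6 CPM in unstimulated Smad7-KO libraries and of 284 to 327 CPM and 46.3 to 46.7 CPM in the TGF-β1 groups, and Cldn5 was at the floor in both Smad7-KO groups. Of 6 mesothelial markers, 4 were lower in unstimulated and 2 in TGF-β1-treated Smad7-KO cells, and their summed level was 277 to 310 CPM in unstimulated control and 176 to 212 CPM in unstimulated Smad7-KO libraries. With TGF-β1 alone, macrophage, endothelial and mesothelial markers had 1, 1 and 0 calls in control cells, all lower. Summed levels of the other lists over the 12 libraries were 31.3 to 67.4 CPM for smooth muscle and pericytes, 17.9 to 77.6 CPM for cardiomyocytes, 1.16 to 5.54 CPM for mast cells and 0.172 to 2.04 CPM for lymphocytes and neutrophils. In these bulk samples, fewer cells of a type and less RNA per cell cannot be told apart.

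**Figure D1:**
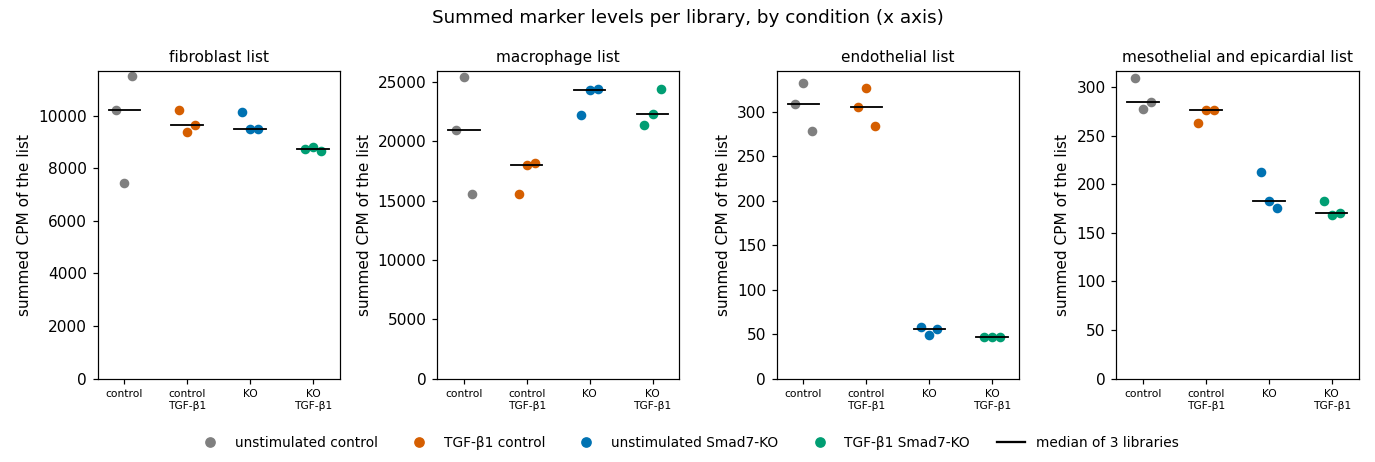
Summed CPM of the marker lists for fibroblasts, macrophages, endothelial cells and mesothelial cells in each of the 12 libraries (points), with the median of each condition as a line. The macrophage sum exceeds the fibroblast sum in every library, and the endothelial sum is between 278 and 332 CPM in unstimulated control and between 49.0 and 58.6 CPM in unstimulated Smad7-KO libraries.

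Ptgis, which encodes prostacyclin synthase, was the most abundant of the 10 transcripts per unit of length, followed by the cyclooxygenase Ptgs1. On the scale of deposited FPKM values (counts relative to gene length and library total), Ptgis averaged 112 over the 12 libraries (range 79.1 to 159). Ptgs1 averaged 34.8 FPKM (18.7 to 48.9). Ptger1 followed at 14.3 FPKM (7.95 to 17.4), Ptgs2 at 8.33 FPKM (3.45 to 16.6), and Ptger4 at 7.41 FPKM (4.85 to 10.2). Ptges, the inducible prostaglandin E synthase, averaged 1.38 FPKM (0.814 to 2.01), and Ptger2 averaged 0.562 FPKM (0.114 to 1.02). The 3 untested genes lay lowest, Ptgds at 0.188 FPKM, Ptgfr at 0.0530 FPKM and Ptger3 at 0.00681 FPKM. Ptgis and Ptgs1 held the top places in every condition with no overlap of their libraries, and the ratio of their mean FPKM was 5.72 in control cells without and 3.85 with TGF-β1, and 2.59 in Smad7-KO cells without and 1.96 with TGF-β1. Further down, neighbors were not always separated by their libraries. Libraries of Ptger4 and Ptgs2 overlapped in unstimulated control (means of 6.73 and 6.65 FPKM) and again in TGF-β1 Smad7-KO cells (7.71 and 8.02 FPKM), and those of Ptgs2 and Ptger1 overlapped in TGF-β1 control cells (14.9 and 13.3 FPKM).

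**Figure D2:**
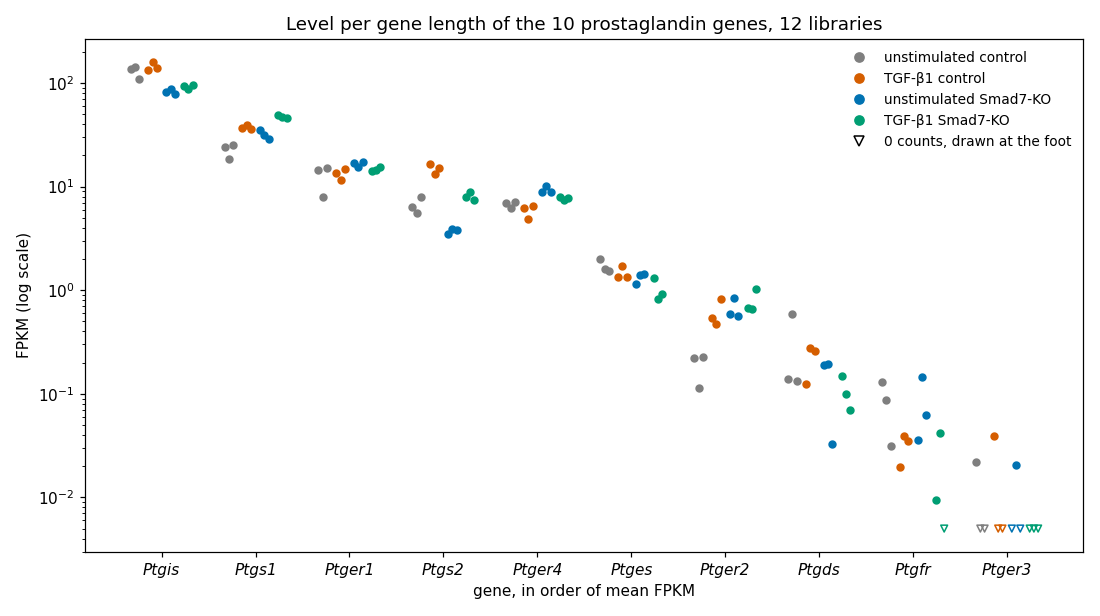
Deposited FPKM of the 10 genes in each library on a log axis, with the 4 conditions side by side. Ptgis lies at the top in every condition (79.1 to 159 FPKM), and open triangles at the foot mark libraries with 0 counts (9 of 12 for Ptger3 and 1 of 12 for Ptgfr).

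In unstimulated cells, Smad7 loss was associated with higher Ptgs1, Ptger2 and Ptger4 and lower Ptgs2 and Ptgis. Thus 5 of 7 tested genes passed a Benjamini-Hochberg adjusted p of 0.05 in edgeR's quasi-likelihood test, against 25.8% of all 15150 genes tested (1827 higher and 2080 lower). These counts depended on the libraries fitted. With edgeR on only the 6 libraries compared, 2 of 7 genes (Ptgs2 and Ptger2) and 660 of 14524 genes passed, and on leaving out 1 library the genes called ranged from 1535 to 7979 and those of the 10 from 4 to 6. The groups' libraries did not overlap for 7 of 7 genes, against 41.3% of all genes. The median size of the change in the 7 genes was 0.47 on the log2 scale, and it was 0.41 over all genes. In TGF-β1-treated Smad7-KO cells Ptgs1 and Ptger4 were higher and Ptgs2 and Ptgis lower than in TGF-β1 control cells, 4 of 7 genes against 13% of all genes (866 higher and 1096 lower, or 44.1% higher, a split of 31.3% to 55.7% under other scalings), with no overlap in 4 of 7 genes against 44.9% of all genes. The median size of the change was 0.45 in the 7 genes and 0.30 over all genes. Of these 4 calls only that of Ptgs2 remained, 1 of the 4, on leaving out TGF-β1 control library 2 or any 1 of the TGF-β1 Smad7-KO libraries.

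TGF-β1 raised Ptgs1, Ptgs2 and Ptger2 in control cells and lowered none of the 7 genes. These 3 calls compare with 8.37% of all genes (763 higher and 505 lower, or 60.2% higher, and 49.2% with the length trend removed), and libraries did not overlap for 4 of 7 genes, against 19.8% of all genes. In Smad7-KO cells TGF-β1 raised Ptgs1 and Ptgs2, 2 of 7 genes against 10.2% of all genes, with no overlap in 4 of 7 genes against 39% of all genes. Each Smad7-KO comparison shares its control and its Smad7-KO libraries with a TGF-β1 comparison, so the 4 sets of values are not independent of each other. Without unstimulated control library 2 the calls numbered 5, 4, 3 and 2, as they did with it.

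**Figure D3:**
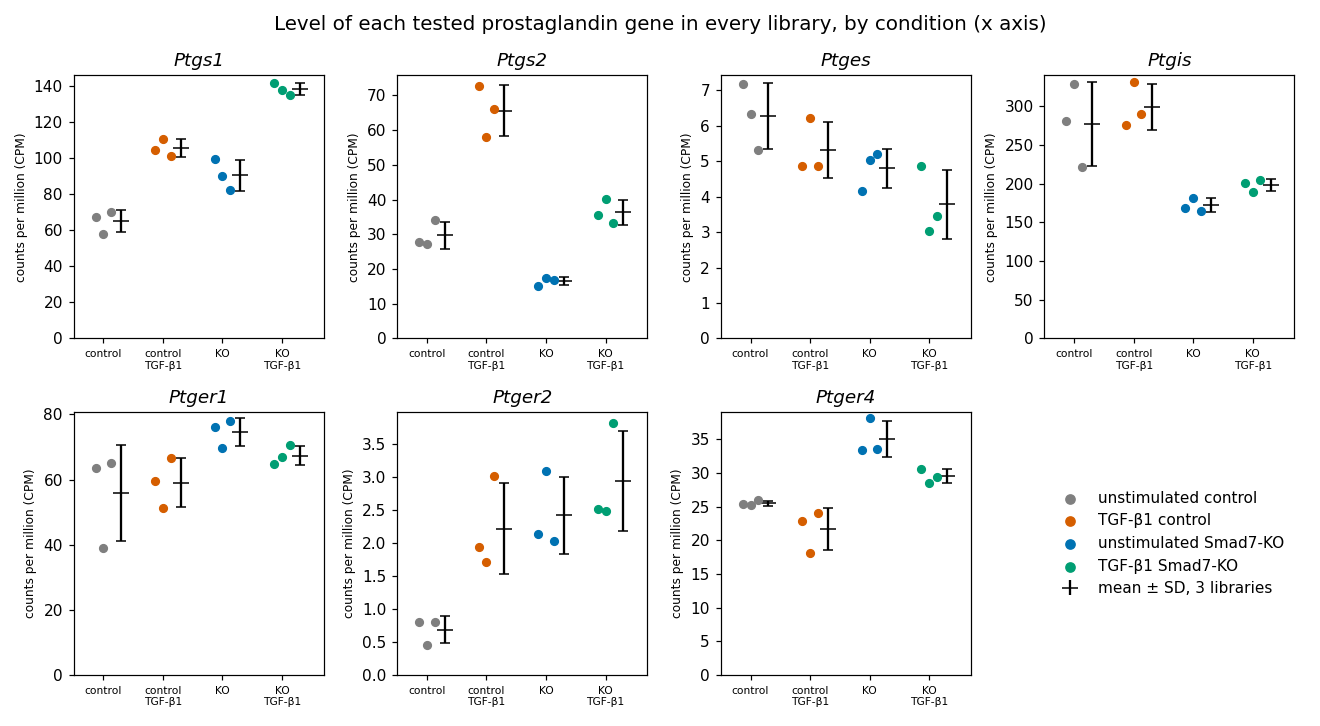
CPM of the 7 tested genes in each library (points) of the 4 conditions, with the mean and SD of 3 libraries beside them. Ptgs1 is lowest in unstimulated control (58.2 to 70.0 CPM) and highest in TGF-β1 Smad7-KO cells (135 to 142 CPM), whereas Ptgs2 is highest in TGF-β1 control cells (58.1 to 72.7 CPM) and lowest in unstimulated Smad7-KO cells (15.2 to 17.3 CPM).

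The cyclooxygenase genes moved in the same direction with TGF-β1 and in opposite directions with Smad7 loss. Ptgs1 (ENSMUSG00000047250) spans chr2:36230426-36252272 on the plus strand of GRCm38, and Ptgs2 (ENSMUSG00000032487) spans chr1:150100031-150108227 on the plus strand. The bases around their starts are shown because both genes rose with TGF-β1 and passed the test in opposite directions for Smad7 loss. They come from RefSeq on GRCm38.p6, are read 5′ to 3′ on the strand of the gene, and comprise the 250 bases before the annotated start and the first 30 bases after it. Capitals mark any of 7 motifs searched on both strands, namely the TATA box TATAAA, the cyclic AMP response element TGACGTCA and its core TGACGT, the Smad-binding sequence CAGACA, the AP-1 site TGANTCA, the E-box CACGTG and the CCAAT box, of which TGACGT also lies within TGACGTCA.
Ptgs1 chr2:36230176-36230425: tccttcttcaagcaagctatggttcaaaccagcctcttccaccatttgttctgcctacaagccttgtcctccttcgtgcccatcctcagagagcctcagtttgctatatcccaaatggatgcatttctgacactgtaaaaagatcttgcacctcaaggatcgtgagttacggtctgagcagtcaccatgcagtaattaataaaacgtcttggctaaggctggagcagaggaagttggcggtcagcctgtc
Ptgs1 chr2:36230426-36230455: agaggtgacaactggagggaggagtggggg
Ptgs2 chr1:150099781-150100030: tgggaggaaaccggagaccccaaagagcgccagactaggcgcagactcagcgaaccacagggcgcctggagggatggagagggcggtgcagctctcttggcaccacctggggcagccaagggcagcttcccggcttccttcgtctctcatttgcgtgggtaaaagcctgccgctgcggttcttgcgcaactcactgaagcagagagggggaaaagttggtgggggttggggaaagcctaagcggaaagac
Ptgs2 chr1:150100031-150100060: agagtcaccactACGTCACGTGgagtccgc

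Neither 250-base window before the start held any of the 7 motifs. In Ptgs2, TGACGT was read on the opposite strand at bases 13 to 18 counted from 1 at the annotated start, and CACGTG lay at bases 17 to 22, so the motifs share bases. Among all promoter windows from 250 bases before to 50 after a start, 7.51% held TGACGT and 7.15% held CACGTG. The shares for the other motifs were 13.6% for TATAAA, 1.79% for TGACGTCA, 21% for CAGACA, 7.81% for TGANTCA and 37.4% for CCAAT. A match describes letters, and no factor's binding was measured.

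Ptgs1, the cyclooxygenase that many tissues express constitutively, was at 67.4, 58.2 and 70.0 CPM in unstimulated control libraries 1 to 3 and at 99.5, 89.9 and 82.1 CPM in unstimulated Smad7-KO libraries. In TGF-β1 control libraries Ptgs1 was at 104, 111 and 101 CPM, and in TGF-β1 Smad7-KO libraries at 142, 138 and 135 CPM. All 4 conditions were separate in their libraries, rising from unstimulated control through unstimulated Smad7-KO and TGF-β1 control to TGF-β1 Smad7-KO. Ptgs1 was 1.39-fold higher in Smad7-KO than in control cells without stimulation (log2 fold change 0.47, SE 0.104, edgeR adjusted p = 0.00962) and 1.31-fold higher with TGF-β1 (0.39, SE 0.104, adjusted p = 0.0295). TGF-β1 raised it 1.62-fold in control cells (0.70, SE 0.104, adjusted p = 0.0012) and 1.53-fold in Smad7-KO cells (0.61, SE 0.104, adjusted p = 0.00238). In edgeR on only the libraries compared, the unstimulated Smad7-KO difference (0.47, adjusted p = 0.0975) and the TGF-β1 response of control cells (0.69, adjusted p = 0.0530) missed the threshold. The Smad7-KO difference under TGF-β1 sat near it. Its edgeR adjusted p rose to between 0.0530 and 0.111 on leaving out any of 7 libraries (TGF-β1 control 1, 2 or 3, TGF-β1 Smad7-KO 1, 2 or 3, or unstimulated Smad7-KO 2), with log2 fold changes of 0.36 to 0.44. Without unstimulated control library 2 the unstimulated difference was 0.40 (adjusted p = 0.0111). Of 10 macrophage markers, 5 were higher in Smad7-KO cells without and 4 with TGF-β1, and the rest were not called. Of 9 tested endothelial markers, 6 were lower and 1 was higher in both Smad7-KO comparisons. The part of these cell types in the Ptgs1 difference was not tested.

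Ptgs2, the inducible cyclooxygenase, was at 27.7, 27.2 and 34.2 CPM in unstimulated control and at 15.2, 17.3 and 16.9 CPM in unstimulated Smad7-KO libraries. With TGF-β1 it was at 72.7, 58.1 and 66.0 CPM in control and at 35.5, 40.1 and 33.3 CPM in Smad7-KO libraries. The TGF-β1 control libraries were all above the rest, the unstimulated Smad7-KO libraries all below, and only TGF-β1 Smad7-KO and unstimulated control overlapped. Ptgs2 was 1.80-fold lower in Smad7-KO cells without stimulation (log2 fold change -0.85, SE 0.130, edgeR adjusted p = 0.00153) and 1.81-fold lower with TGF-β1 (-0.85, SE 0.127, adjusted p = 0.0017). TGF-β1 raised Ptgs2 2.21-fold in control cells (1.14, SE 0.128, adjusted p = 1.58e-04) and 2.20-fold in Smad7-KO cells (1.14, SE 0.130, adjusted p = 1.44e-04). The difference between both TGF-β1 responses, the interaction, was -0.00427 on the log2 scale, with a 95% interval from -0.41 to 0.40. Ptgs2 passed the threshold in all 4 comparisons under each of 21 other settings, leaving out each library included. Without unstimulated control library 2 its unstimulated Smad7-KO difference was -0.90. In the Smad7-KO comparisons 6 of 9 endothelial markers were lower and 1 higher, and 4 of 6 mesothelial markers were lower without and 2 of 6 with TGF-β1. Macrophage markers went the other way, with 5 of 10 higher without and 4 of 10 with TGF-β1, and none lower. The part of these cell types in the difference was not tested.

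The share of Ptgs2 among the cyclooxygenase transcripts was lower in every Smad7-KO library than in every control library under the same treatment. As a percentage of the summed FPKM of Ptgs1 and Ptgs2, Ptgs2 was 20.9%, 23.1% and 23.9% in unstimulated control libraries and 8.96%, 11.0% and 11.7% in unstimulated Smad7-KO libraries. With TGF-β1 it was 31.0%, 25.2% and 29.5% in control and 13.9%, 15.8% and 13.7% in Smad7-KO libraries. TGF-β1-treated libraries lay above their unstimulated group in control and in Smad7-KO cells, without overlap. The share was 12.1 percentage points lower in Smad7-KO cells without stimulation (means 10.6% ± 1.43 against 22.6% ± 1.57, SD, n = 3) and 14.1 points lower with TGF-β1 (14.5% ± 1.16 against 28.6% ± 2.99). With TGF-β1 the mean share was 5.92 points higher in control and 3.89 points higher in Smad7-KO cells. Each of the 4 differences had an exact two-sided permutation p of 0.1, the smallest that 3 libraries against 3 can give.

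**Figure D4:**
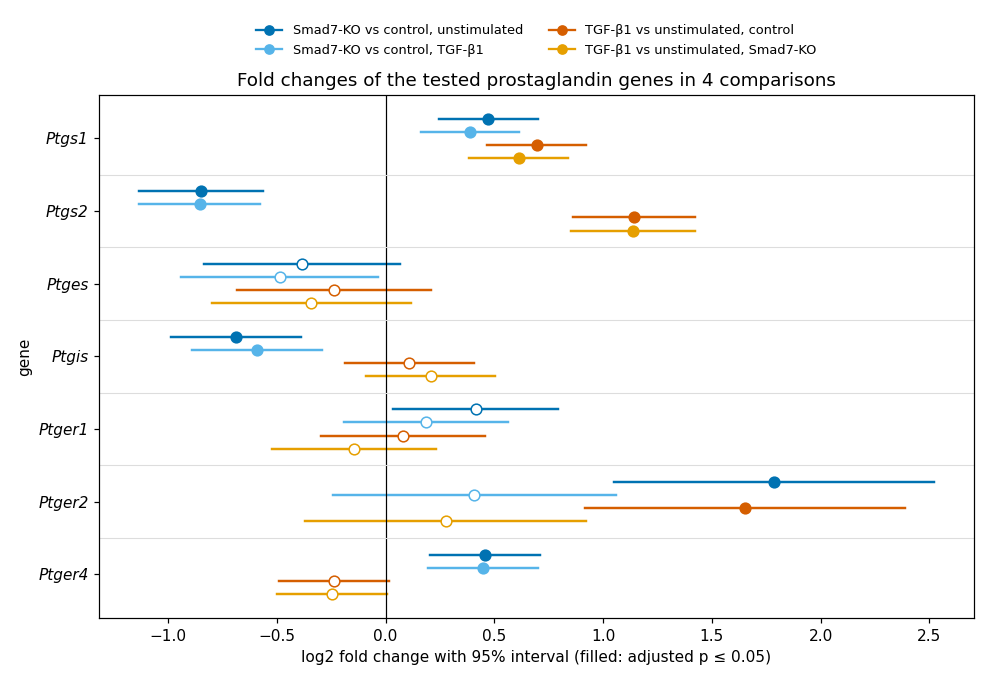
Log2 fold changes of the 7 tested genes in the 4 comparisons with 95% intervals, where filled points passed an adjusted p of 0.05 in edgeR. Ptgs1 and Ptgs2 lie to the right of 0 for TGF-β1 in control and Smad7-KO cells, and on opposite sides of 0 for Smad7 loss (0.47 and -0.85 without stimulation).

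Of the terminal synthases, Ptgis was lower in Smad7-KO cells and did not pass the test for TGF-β1, Ptges passed in no comparison, and Ptgds was near the floor. Ptgis (ENSMUSG00000017969, chr2:167191805-167240604, minus strand) was at 282, 329 and 221 CPM in unstimulated control and at 169, 182 and 165 CPM in unstimulated Smad7-KO libraries. With TGF-β1 it was at 275, 332 and 290 CPM in control and at 201, 190 and 205 CPM in Smad7-KO libraries. Every Smad7-KO library lay below every control library, and the control groups overlapped with each other. Ptgis was 1.61-fold lower in Smad7-KO cells without stimulation (log2 fold change -0.69, SE 0.136, edgeR adjusted p = 0.00596) and 1.51-fold lower with TGF-β1 (-0.59, SE 0.136, adjusted p = 0.0157). For TGF-β1 the fold change of Ptgis was 0.11 in control cells (95% interval -0.19 to 0.41, adjusted p = 0.695) and 0.21 in Smad7-KO cells (-0.09 to 0.50, adjusted p = 0.485). The TGF-β1-treated Smad7-KO libraries lay above the untreated ones, and Ptgis passed for this comparison when only those libraries were fitted (edgeR adjusted p = 0.0193, DESeq2 adjusted p = 0.0125). In the same kind of edgeR fit, on only the libraries compared, the unstimulated Smad7-KO difference missed the threshold (-0.69, adjusted p = 0.0736). The Smad7-KO difference under TGF-β1 was lost on leaving out TGF-β1 control library 2 or TGF-β1 Smad7-KO library 1, 2 or 3 (-0.60 to -0.50, edgeR adjusted p 0.0506 to 0.0865). Without unstimulated control library 2, the unstimulated difference was -0.54 (adjusted p = 0.00517). Prostacyclin synthase is also known from endothelial cells, and of 9 tested endothelial markers 6 were lower, 1 higher and 2 not called in each of the same comparisons, with the summed levels given above. Of 10 macrophage markers, 5 were higher without and 4 with TGF-β1, and none was lower. Mesothelial markers were lower for 4 of 6 without and 2 of 6 with TGF-β1, and none was higher. Among 10 fibroblast markers, 2 were higher and 2 lower in both comparisons. The part of these cell types in the Ptgis difference was not tested. Of the exonic bases of Ptgis, 6.08% overlap with 1110018N20Rik on the opposite strand.

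Ptges (ENSMUSG00000050737, chr2:30889471-30929863, minus strand), the microsomal synthase that is often induced together with Ptgs2, was at 7.17, 6.34 and 5.31 CPM in unstimulated control and at 4.16, 5.02 and 5.21 CPM in unstimulated Smad7-KO libraries. With TGF-β1 Ptges was at 4.85, 6.22 and 4.86 CPM in control and at 4.87, 3.03 and 3.44 CPM in Smad7-KO libraries. Unstimulated groups did not overlap, but by a narrow gap, and the TGF-β1 groups did. The fold change with Smad7 loss was -0.39 without stimulation (95% interval -0.84 to 0.06, edgeR adjusted p = 0.167) and -0.49 with TGF-β1 (-0.94 to -0.03, adjusted p = 0.148). For TGF-β1 it was -0.24 in control (-0.69 to 0.21, adjusted p = 0.554) and -0.34 in Smad7-KO cells (-0.80 to 0.12, adjusted p = 0.441).

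Ptgds (ENSMUSG00000015090, chr2:25466709-25470046, minus strand), the lipocalin-type prostaglandin D synthase, was too low for the test. Control libraries held 4, 15 and 4 counts of Ptgds without and 4, 9 and 7 with TGF-β1, and Smad7-KO libraries 5, 6 and 1 without and 5, 3 and 2 with TGF-β1. All 4 groups overlapped, and the highest value belonged to the unstimulated control library that stood apart. No difference was detectable at this depth.

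Of the receptors for prostaglandin E2, Ptger4 was higher in Smad7-KO cells under both treatments, Ptger2 was higher in Smad7-KO cells without stimulation and in control cells with TGF-β1, Ptger1 passed in no comparison and Ptger3 was nearly undetected. Ptger4 (ENSMUSG00000039942, chr15:5206661-5244187, minus strand) encodes the EP4 receptor, which couples to stimulatory G protein. It was at 25.4, 25.3 and 26.0 CPM in unstimulated control and at 33.4, 38.1 and 33.5 CPM in unstimulated Smad7-KO libraries. With TGF-β1 it was at 22.8, 18.1 and 24.1 CPM in control and at 30.6, 28.5 and 29.5 CPM in Smad7-KO libraries. The conditions did not overlap, and descended from unstimulated Smad7-KO through TGF-β1 Smad7-KO and unstimulated control to TGF-β1 control. Ptger4 was 1.37-fold higher in Smad7-KO cells without stimulation (log2 fold change 0.46, SE 0.115, edgeR adjusted p = 0.0181) and 1.36-fold higher with TGF-β1 (0.45, SE 0.116, adjusted p = 0.0263). For TGF-β1 the fold change was -0.24 in control (95% interval -0.49 to 0.02, adjusted p = 0.284) and -0.25 in Smad7-KO cells (-0.50 to 0.01, adjusted p = 0.261). The unstimulated difference missed the threshold without unstimulated Smad7-KO library 2 (0.39, adjusted p = 0.0795) and in edgeR on only the libraries compared (0.45, adjusted p = 0.0836). The difference under TGF-β1 missed it without TGF-β1 control library 2 or TGF-β1 Smad7-KO library 1, 2 or 3 (0.35 to 0.47, adjusted p 0.0610 to 0.102) and without the filter on low counts (0.45, adjusted p = 0.0646). Without unstimulated control library 2 the unstimulated difference was 0.45 (adjusted p = 0.0239). Of 10 macrophage markers, 5 were higher in Smad7-KO cells without stimulation and 4 with TGF-β1. Of 9 tested endothelial markers, 6 were lower and 1 was higher in both comparisons. The part of these cell types was not tested. Of the exonic bases of Ptger4, 15.3% overlap with the pseudogene Gm15937 on the opposite strand.

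The promoter of Ptger4 is shown beside that of Ptgs1 because both genes were higher in Smad7-KO cells under both treatments, whereas for TGF-β1 itself only Ptgs1 passed the test. Of the 7 motifs it held CCAAT (capitals) at 75 bases before the start, a pentamer present in 33.8% of 250-base windows, and the Ptgs1 window held none.
Ptger4 chr15:5244188-5244437: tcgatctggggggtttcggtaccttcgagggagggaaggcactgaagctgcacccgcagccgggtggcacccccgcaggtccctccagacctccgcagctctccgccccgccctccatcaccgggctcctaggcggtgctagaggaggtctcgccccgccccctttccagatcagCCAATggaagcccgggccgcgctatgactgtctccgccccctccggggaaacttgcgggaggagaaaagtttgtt

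Ptger2 (ENSMUSG00000037759, chr14:44988195-45003820, plus strand), which encodes the EP2 receptor that also couples to stimulatory G protein, was low. It was at 0.807, 0.457 and 0.801 CPM in unstimulated control libraries, from 18, 8 and 19 counts, and at 2.13, 3.09 and 2.04 CPM in unstimulated Smad7-KO libraries, from 43, 72 and 47 counts. With TGF-β1 Ptger2 was at 1.94, 1.71 and 3.01 CPM in control and at 2.51, 2.49 and 3.82 CPM in Smad7-KO libraries. The unstimulated control libraries were all below the others, and the other conditions overlapped. Ptger2 was 3.45-fold higher in unstimulated Smad7-KO than in unstimulated control cells (log2 fold change 1.79, SE 0.336, edgeR adjusted p = 0.00463). TGF-β1 raised it 3.14-fold in control cells (1.65, SE 0.337, adjusted p = 0.00909), a comparison that uses the same unstimulated control libraries and that missed the threshold in edgeR on only the libraries compared (1.65, adjusted p = 0.0782). With TGF-β1 present, the Smad7-KO difference was 0.41 (95% interval -0.24 to 1.06, adjusted p = 0.376), and in Smad7-KO cells the TGF-β1 difference was 0.28 (-0.37 to 0.92, adjusted p = 0.748). Without unstimulated control library 2 the values were 1.59 (adjusted p = 0.00892) for Smad7 loss and 1.45 (adjusted p = 0.0205) for TGF-β1. Of 10 macrophage markers, 5 were called higher in unstimulated Smad7-KO cells and 0 with TGF-β1 in control cells. Of 9 tested endothelial markers, 6 were lower and 1 was higher in unstimulated Smad7-KO cells. With TGF-β1 in control cells 1 of the 9 was lower. The part of these cell types in the Ptger2 differences was not tested. The antisense gene Gm17173 overlaps with 4.74% of its exonic bases, and Gm49364 with 2.77%.

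Ptger1 (ENSMUSG00000019464, chr8:83666833-83672753, plus strand) encodes the EP1 receptor known for calcium signaling. Whether reads were assigned by strand is not given in the sources used here, so reads of Ptger1 cannot be told apart from those of the opposite strand, and its level is uncertain. Ptger1 was at 63.5, 39.0 and 65.1 CPM in unstimulated control and at 76.0, 69.7 and 77.9 CPM in unstimulated Smad7-KO libraries, which did not overlap. With TGF-β1 it was at 59.5, 51.2 and 66.6 CPM in control and at 64.7, 66.8 and 70.5 CPM in Smad7-KO libraries, which did. The Smad7-KO fold change was 0.41 on the log2 scale without stimulation (95% interval 0.04 to 0.79, edgeR adjusted p = 0.0893) and 0.19 with TGF-β1 (-0.19 to 0.57, adjusted p = 0.484). The former rose to 0.54 without unstimulated control library 3 and then passed the threshold (adjusted p = 0.0228), and it was 0.22 without unstimulated control library 2 (adjusted p = 0.180). For TGF-β1 the fold change was 0.08 in control (-0.30 to 0.46) and -0.15 in Smad7-KO cells (-0.52 to 0.23), and the former was -0.12 without unstimulated control library 2. Ptger1 was lowest in the library that stood apart.

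Ptger3 (ENSMUSG00000040016, chr3:157566892-157644758, plus strand), whose EP3 receptor couples to inhibitory G protein, had 4 counts in all 12 libraries together. It was at 0 in 9 libraries, and a count of 0 allows up to 0.0564 to 0.0751 FPKM in a library. Ptgfr (ENSMUSG00000028036, chr3:151798918-151837630, minus strand), the receptor for prostaglandin F2α, had 12, 7 and 3 counts in control libraries without and 2, 4 and 3 with TGF-β1, and 3, 14 and 6 in Smad7-KO libraries without and 1, 4 and 0 with TGF-β1. Groups overlapped under the same treatment, and no difference in either receptor was detectable at this depth.

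Ptger2 stayed a small share of the transcripts of the 4 receptors for prostaglandin E2 in every condition. As a percentage of their summed FPKM, Ptger2 made up 0.951% ± 0.130 (SD, n = 3) in control cells without and 3.06% ± 0.582 with TGF-β1, and 2.48% ± 0.604 in Smad7-KO cells without and 3.37% ± 0.749 with TGF-β1. The unstimulated control share did not overlap with that of unstimulated Smad7-KO or TGF-β1 control cells (exact two-sided permutation p = 0.1 for each, the smallest possible). Ptger1, whose level is uncertain for want of strand, made up 63.3%, 67.4%, 62.4% and 63.4% in the same order of conditions. Over the other receptors alone, Ptger4 made up 97.2%, 90.4%, 93.4% and 90.8%.

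The TGF-β1 response did not pass a test of difference between Smad7-KO and control cells for any of the 7 genes. The interaction, fitted by edgeR on all 12 libraries, called 0 of them, against 0.0198% of all genes (3 of 15150), and DESeq2 also called 0. At an unadjusted p under 0.05 in edgeR there was 1 of the 7 genes, against 392 of all 15150 genes. This gene, Ptger2, had an interaction of -1.38 on the log2 scale (SE 0.448, 95% interval -2.36 to -0.40, unadjusted p = 0.0101, edgeR adjusted p = 0.98). For the other 6 genes the interaction ranged from -0.23 (Ptger1) to 0.10 (Ptgis). The intervals reach from -0.40 to 0.24 for Ptgs1 and from -0.37 to 0.35 for Ptger4, and from -0.74 to 0.54 for Ptges.

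Genes whose pattern over the 12 libraries was most like that of a member were named for Ptgs1, Ptgs2 and Ptger2, the genes whose condition means span at least 1 on the log2 CPM scale. Likeness was the root mean square difference of log2 CPM after each gene's mean was removed, over 9951 genes. For Ptgs1 the nearest were Rnf149 (0.101), Mcm3 (0.101) and 8430419L09Rik (0.102), against a median of 0.473 over all genes searched. Those nearest to Ptgs2 were St3gal5 (0.169), Gja1 (0.172) and Ephb3 (0.180), against a median of 0.766. For the low Ptger2 they were Sh3bgrl2 (0.388), Naip5 (0.394) and Pfkfb3 (0.402), against 0.846.

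Beyond the members, 42 other genes of the eicosanoid pathway were listed and 30 of them tested. In unstimulated cells 4 were higher and 8 lower with Smad7 loss, against 25.8% of all genes called, and in TGF-β1-treated cells 3 were higher and 5 lower, against 13%. TGF-β1 raised none and lowered 3 in control cells, against 8.37% of all genes, and raised 1 and lowered 3 in Smad7-KO cells, against 10.2%, so both TGF-β1 counts were near the share of all genes. The median log2 fold change of the 30 genes was -0.34, -0.10, -0.18 and -0.12 in these comparisons, and over all genes it was -0.02, -0.02, -0.03 and -0.01.

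Upstream of the cyclooxygenases, 3 of 6 tested genes of arachidonate release were lower in unstimulated Smad7-KO cells and none was higher. Of all genes, 25.8% were called there in either direction. With TGF-β1 present 1 of 6 was lower, against 13% of all genes called, so this count was near the share. Mgll, the monoacylglycerol lipase, was lower by 0.92 on the log2 scale (edgeR adjusted p = 0.00136; mean 43.1 CPM in control against 22.7 CPM in Smad7-KO cells), and Pla2g12a, a secreted phospholipase, had a fold change of -0.87 (adjusted p = 0.0233). Among 7 other prostanoid synthases, Hpgds and Tbxas1 were higher in both Smad7-KO comparisons and none was lower. This count was near the share of all genes called without stimulation (25.8%), and with TGF-β1 that share was 13%. Hpgds, the hematopoietic prostaglandin D synthase, had a mean of 106 CPM in unstimulated control and 162 CPM in unstimulated Smad7-KO cells, and its fold change with TGF-β1 present was 0.66 (adjusted p = 0.00316). Tbxas1, the thromboxane synthase, went from 83.5 CPM to 127 CPM, with 0.65 under TGF-β1 (adjusted p = 0.00115). Both synthases are known from macrophages, of whose 10 markers 5 and 4 were higher in these comparisons. Of 9 tested endothelial markers, 6 were lower and 1 was higher in both. The part of these cell types was not tested.

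Downstream, Tbxa2r, the thromboxane receptor, was lower in Smad7-KO cells by a fold change of -1.39 without stimulation (edgeR adjusted p = 1.90e-04) and -0.92 with TGF-β1 (adjusted p = 0.0022), and TGF-β1 raised it in Smad7-KO cells (0.71, adjusted p = 0.0095). Of 3 tested genes in its list, the others being Ptgir and Ptgfrn, only Tbxa2r passed. The prostacyclin receptor Ptgir had condition means of 7.30 to 8.87 CPM. Of 7 genes of uptake, export and breakdown, 1 was higher (Ptgr2) and 3 lower in unstimulated Smad7-KO cells, against 25.8% of all genes called. Hpgd, the dehydrogenase that inactivates prostaglandins, was lower with Smad7 loss (-0.63, adjusted p = 0.00554) and lower with TGF-β1 in control (-0.72, adjusted p = 0.00322) and Smad7-KO cells (-0.54, adjusted p = 0.0155). The carbonyl reductase gene Cbr3 was at -0.85 without stimulation (adjusted p = 0.0301), and the prostaglandin transporter Slco2a1 at -0.86 with TGF-β1 (adjusted p = 0.014). Zadh2, a prostaglandin reductase, fell with TGF-β1 in Smad7-KO cells (-0.44, adjusted p = 0.0174). In the lipoxygenase branch, Alox5 was lower (-0.62, adjusted p = 0.0162, and -0.65, adjusted p = 0.0169) and the leukotriene receptor Cysltr1 higher in both Smad7-KO comparisons. TGF-β1 lowered Cysltr1 in control (-1.16, adjusted p = 1.04e-04) and in Smad7-KO cells (-1.09, adjusted p = 1.08e-04). It also lowered Hpgds in control cells (-0.41, adjusted p = 0.0407), a call kept in 5 of 21 other settings and lost on leaving out any library other than unstimulated control 2 and TGF-β1 Smad7-KO 3 (-0.47 to -0.31 over all leave-outs).

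Several of these calls were lost on leaving out any 1 of several libraries, without a change of direction. The unstimulated Smad7-KO difference of Pla2g12a was lost without any 1 of the unstimulated Smad7-KO libraries (-1.10 to -0.50 over all leave-outs), that of Cbr3 also without unstimulated control library 1 or 2 (-1.10 to -0.47), and that of Alox5 without unstimulated control library 1 or unstimulated Smad7-KO library 1 or 3 (-0.67 to -0.48). With TGF-β1 present, Slco2a1 lost its call without TGF-β1 Smad7-KO library 1 or 3 (-0.93 to -0.79), and Alox5 without TGF-β1 control library 1 or 2 or TGF-β1 Smad7-KO library 1 or 2 (-0.77 to -0.55). For TGF-β1 in Smad7-KO cells, Hpgd lost its call without unstimulated Smad7-KO library 2 or TGF-β1 Smad7-KO library 2 or 3 (-0.56 to -0.50). Zadh2 lost its own without unstimulated Smad7-KO library 1 or 3 or any TGF-β1 Smad7-KO library (-0.50 to -0.40).

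**Figure D5:**
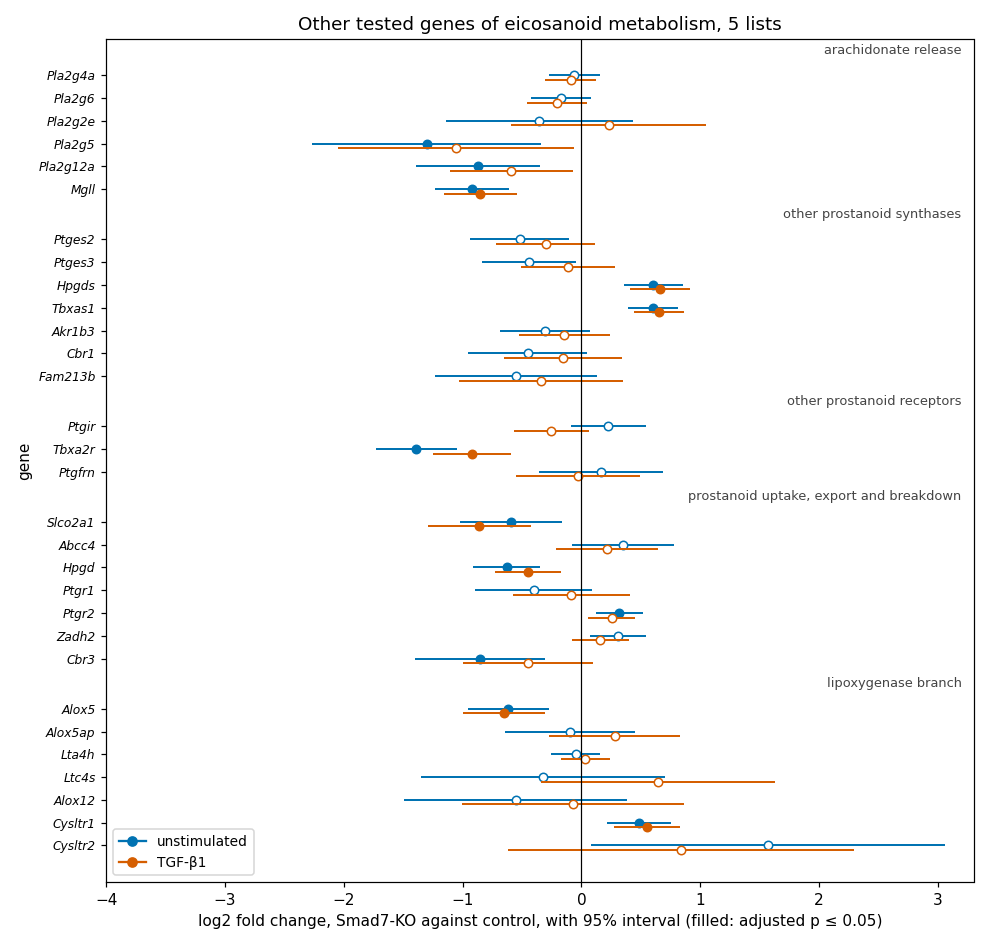
Log2 fold changes with Smad7 loss of the 30 other tested eicosanoid genes, without stimulation and with TGF-β1, where filled points passed an adjusted p of 0.05. Hpgds and Tbxas1 lie on the higher side in both comparisons (0.66 and 0.65 with TGF-β1), and Tbxa2r on the lower side in both (-1.39 and -0.92).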

How the data were processed

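RNA-Seq was performed on 12 libraries of cultured mouse cardiac fibroblasts, grouped by their labels. The authors deposited raw whole-number counts for 35275 genes, which carry no scaling between libraries. The deposited FPKM values were recovered (tolerance 1e-04) from each count, the length of the gene and the library's total. Per the submitters' processing notes, the tools were CASAVA, TopHat2 2.0, Cufflinks 2.1.1 and HTSeq 0.6.1 with mm10 and GRCm38.p6, and strand use is not given in the sources used here. Without strand, reads of overlapping genes cannot be separated. Coordinates are those of the deposited table, overlaps come from GENCODE on GRCm38, and promoters come from RefSeq, whose table matched 8 of the 10 genes by symbol (Ptgis and Ptger1 had no entry).

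The count model was that of edgeR 4.0.16, run in R 4.3.3. It used the 15150 genes that filterByExpr retained at a minimum count of 10, TMM scaling, and 1 robust quasi-likelihood fit over all 12 libraries. Benjamini-Hochberg adjusted p values of 0.05 or less were called. Shares were compared by exact two-sided permutation tests. Alternatives were DESeq2 1.42.0, limma 3.58.1 on log2(FPKM + 1) and log2(FPKM + 0.1), fits on only the libraries compared, DESeq2's size factors, no filter, removal of the trend on gene length, a replicate block and leaving out each library. Procedures were tested on simulated data.

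All 10 genes are named in every comparison. Other pathway genes are named where they are among the 6 largest changes with an adjusted p of 0.05 or less, libraries that do not overlap and a mean log2 CPM of 1 or more, and other genes given by counts or as examples were chosen after their values were seen. Like-pattern genes are the 3 nearest with a mean log2 CPM of 3 or more. The members, gene lists and tests were chosen with earlier results of these data known. Precision is limited by 3 libraries per condition and by totals of 19056916 to 25371321 counts. Some results are not reported here.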

Additional observations from a re-analysis of the deposited data

How the results depend on the processing

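Ptgs2 passed the threshold in all 4 comparisons under every setting, and the directions of the calls on Ptgs1, Ptgs2, Ptgis, Ptger2 and Ptger4 never turned. Other counts moved, and the cause was not tested. With edgeR on only the libraries compared, 2, 4, 1 and 4 of the 10 genes and 660, 4453, 391 and 3792 of all genes were called for Smad7 loss without and with TGF-β1 and for TGF-β1 in control and Smad7-KO cells. DESeq2 on those libraries called 2271, 4605, 865 and 3413 genes, and 3 of the 10 genes for TGF-β1 in Smad7-KO cells. Without the filter, 2 of the 10 genes were called for Smad7 loss with TGF-β1. limma, in which Ptger2 was too low, called 4, 3, 2 and 2, and 0 interactions over all genes. Removing the length trend called 3514, 2204 and 2468 genes for Smad7 loss with TGF-β1 and for TGF-β1 in control and Smad7-KO cells, and 8 interactions, and DESeq2 on all libraries called 14 interactions. On leaving out 1 library, the calls on the 10 genes ranged over 4 to 6, 1 to 4, 3 to 3, 2 to 2 and 0 to 0, and those on all genes over 1535 to 7979, 883 to 4465, 825 to 3449, 985 to 2535 and 0 to 6. A group left with 1 library fewer is assumed to vary like the others.

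With the replicate block, 5, 3, 3, 2 and 0 of the 10 genes and 3222, 1625, 1107, 1323 and 0 of all genes were called, and Ptgs1 for Smad7 loss with TGF-β1 missed the threshold (adjusted p = 0.0536, edgeR). Same-numbered libraries correlated at -0.205 to 0.524 in their deviations, not all over 0.1. With 3 libraries per condition, these mixed values cannot settle whether the numbers pair the libraries.

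Values that changed sign were none of them called. The interaction of Ptgs2 was 0.0174, 0.0172 and 0.121, and that of Ptger4 0.0131, 0.0126 and 0.0932, with DESeq2, its size factors and the length trend removed. On leaving out 1 library, interactions ranged over -0.122 to 0.0759 (Ptgs2), -0.126 to 0.0708 (Ptger4), -0.330 to 0.0340 (Ptges), -0.150 to 0.00551 (Ptgs1) and -0.0305 to 0.234 (Ptgis). The TGF-β1 difference in control cells of Ptger1 was -0.00885 with the length trend removed and -0.123 to 0.206 on leaving out 1 library, and that of Ptgis -0.0265 to 0.249. Among the receptor shares, the Smad7-KO difference ranged over -0.118 to 0.649 percentage points for Ptger2 with TGF-β1 and -2.54 to 3.11 points for Ptger4 without it. Depth limits Ptgds, Ptger3 and Ptgfr, and 3 libraries per condition limit the rest.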
